A study of Mus musculus with 19 samples.

Results

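The synaptic vesicle release genes were 31 genes chosen by name for their place in the machinery that loads, docks, primes and fuses synaptic vesicles. They are 31 of the 36682 genes in the deposited table of read counts, and all 31 were among the 22778 genes that passed the filter on low counts (at least 10 counts in enough libraries). No member had fewer than 43 counts in any of the 19 libraries. RNA came from dorsal root ganglia, the clusters of sensory neuron cell bodies beside the spinal cord, taken at levels L3 to L5 and pooled. In operated mice they came from the side of the surgery, and for mice without surgery the side is not given in the sources used here. All animals were male and homozygous for the MaFIA transgene, so the controls carried it as well. MaFIA places a drug-inducible form of the death receptor Fas under the Csf1r promoter, which is active in macrophages and in other myeloid cells. AP20187 joins copies of this receptor and so triggers death of the cells that make it. Mice with osteoarthritis induced by destabilization of the medial meniscus of the knee (DMM) received intraperitoneal AP20187 (5 libraries) or vehicle (5 libraries) daily for 5 days, 8 weeks after surgery. Mice of the same age without surgery (naive) received AP20187 (4 libraries) or vehicle (5 libraries) in the same way. The labels number the samples, and each number is read here as 1 mouse. The labels do not state that, so p-values set group differences against the spread between these samples.

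Totals ranged from 60984830 to 74691396 counts per library. Of the macrophage markers Csf1r, Adgre1 and Cd68, none was called lower with AP20187. Csf1r differed by -0.02 (SE 0.46, adjusted p 0.982) on the log2 scale in DMM mice and by 0.45 (SE 0.48, adjusted p 0.554) in naive mice, Adgre1 by 0.87 (SE 0.52, adjusted p 0.242) and 1.22 (SE 0.55, adjusted p 0.149), and Cd68 by 0.90 (SE 0.45, adjusted p 0.151) and 1.98 (SE 0.48, adjusted p 0.0139), in edgeR's quasi-likelihood test. Neuronal markers of the ganglion were present, with a summed level of 14558 to 28604 CPM (counts scaled to library size) in naive vehicle mice. Differences in whole-ganglion RNA cannot tell apart fewer neurons, less RNA per neuron and a larger share of RNA from other cells.

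Neurotransmitter is released when a vesicle fuses with the plasma membrane. The vesicle protein synaptobrevin (VAMP) and the membrane proteins syntaxin and SNAP-25 zip into a SNARE complex, complexins clamp it, and synaptotagmins trigger fusion when calcium enters. NSF and its SNAP adaptors then take the complex apart. Rab3 proteins, RIM and Munc13 proteins hold and prime vesicles at the active zone, and bassoon and piccolo form its scaffold. Sensory neurons make these transcripts in the ganglion and use the proteins at their terminals in the spinal cord and in peripheral tissue.

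Start-site sequence was available for 24 of the 31 members in a RefSeq table of mouse promoters (GRCm38.p6), as 31 windows reaching from 250 bases before the start to 50 bases after it. Motifs were searched on both strands. The first was an RE1-type motif, the sequence bound by REST, a repressor that keeps neuronal genes silent outside neurons. It was searched as TTCAGCACC, 2 bases of any kind, GGACAG, 1 base of any kind and GCC, with up to 4 mismatches in its 18 fixed letters. The closest member match was in Syn1 (synapsin I), with 1 mismatch, 232 to 212 bases before the start. Matches with 4 mismatches were found in Syt2 (synaptotagmin 2), 124 to 104 bases before the start, and in Unc13a (Munc13-1), 10 to 30 bases after the start. These 3 matches are shown because they let the shared letters be compared directly. Capitals mark the letters that match the motif, each match is written 5′ to 3′ in the motif's direction, and coordinates are GRCm38.p6. The Syn1 match lies at chrX:20921130-20921150 on the minus strand, the Syt2 match at chr1:134646488-134646508 on the plus strand, and the Unc13a match at chr8:71671727-71671747 on the plus strand, opposite to the gene.
Syn1: TTCAGCACCgcGGtCAGaGCC
Syt2: cTgcGCACCgaGGACAGtcCC
Unc13a: TTCAGCACCggGGgCgcgGaC

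Of all 32851 windows in the table, 0.575% held an RE1-type match with up to 4 mismatches and 0.0152% (5 windows) one with up to 1 mismatch. Among the member windows these were 3 of 31 and 1 of 31. The cyclic AMP response element TGACGTCA occurred in 1 member window (Syn1) and in 1.79% of all windows. The GC box GGGCGG occurred in 20 of the 31 member windows (64.5%) and in 35.7% of all windows. Member windows had a median GC content of 61.3%, against 52.7% over all windows. A match describes letters in a window and is no measured binding.

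The bases before the start are printed for Syn1, which holds both the RE1-type match and the response element, for Rab3b, whose adjusted p was the smallest among the members, and for Syp (synaptophysin), whose level followed the neuronal markers most closely. Each is written 5′ to 3′ on the gene's strand. Capitals mark the RE1-type match and TGACGTCA in Syn1, and GC boxes in either orientation in Rab3b and Syp. Syn1 covers chrX:20920919-20921168 (minus strand), Rab3b chr4:108878820-108879069 (plus strand) and Syp chrX:7638330-7638579 (plus strand). Rab3b held 4 GC boxes, Syp 2 and Syn1 0.
Syn1: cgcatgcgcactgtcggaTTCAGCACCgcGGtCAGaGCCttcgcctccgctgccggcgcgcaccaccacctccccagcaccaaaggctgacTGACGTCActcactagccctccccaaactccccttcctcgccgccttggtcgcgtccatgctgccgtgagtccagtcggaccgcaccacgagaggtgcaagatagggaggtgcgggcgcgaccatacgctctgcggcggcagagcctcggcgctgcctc
Rab3b: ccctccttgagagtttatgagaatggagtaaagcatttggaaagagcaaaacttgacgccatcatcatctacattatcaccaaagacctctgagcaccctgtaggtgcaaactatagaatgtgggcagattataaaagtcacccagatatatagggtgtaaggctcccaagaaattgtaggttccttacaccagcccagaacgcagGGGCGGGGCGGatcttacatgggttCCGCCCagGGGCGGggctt
Syp: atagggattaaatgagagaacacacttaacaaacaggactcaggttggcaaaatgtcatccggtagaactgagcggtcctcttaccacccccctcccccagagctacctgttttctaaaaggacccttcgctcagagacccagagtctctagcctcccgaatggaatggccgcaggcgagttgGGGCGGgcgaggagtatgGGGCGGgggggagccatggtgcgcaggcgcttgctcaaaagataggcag

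Per unit of transcript length (FPKM, fragments scaled to transcript length and library size), the members spanned from 0.500 ± 0.265 to 263 ± 88.7 FPKM (mean ± SD, n = 5) in naive vehicle mice. Cplx1, the complexin that clamps the SNARE complex, was highest, followed by Snap25 at 171 ± 48.7 FPKM. Syt11, a synaptotagmin that does not bind calcium, stood at 159 ± 43.0 FPKM and Syt4 at 109 ± 14.8 FPKM. The triggering sensor Syt1 stood lower, at 36.1 ± 7.95 FPKM, and Syt2 at 28.1 ± 14.7 FPKM. Among the Rab3 GTPases, Rab3a was at 104 ± 30.0 FPKM, Rab3c at 30.7 ± 5.34 FPKM and Rab3b at 3.41 ± 0.591 FPKM. Large scaffold and priming genes were low: Unc13a at 9.80 ± 2.90 FPKM, Rims1 at 7.37 ± 1.71 FPKM, Bsn at 5.90 ± 2.52 FPKM and Pclo at 4.64 ± 1.17 FPKM. The lowest were Unc13b, at 1.52 ± 0.361 FPKM, and Doc2b, a soluble calcium sensor. In the order of levels, the ranges of each gene and the next overlapped, except between Rab3b and Unc13b and between Unc13b and Doc2b.

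In DMM mice the release genes were lower with AP20187 than with vehicle. Of the 31 members, 20 fell in edgeR, 0 rose, and all 31 fitted log2 fold changes were below 0. The median was -1.41, against -0.10 over all 22778 genes tested. Among all genes tested, 12.4% were called lower at the same threshold (adjusted p under 0.05, Benjamini-Hochberg over all genes), so the members' 64.5% stood above that background. The 20 that fell ranged from -1.83 (Syngr1) to -1.08 (Snap25). The 11 that did not pass had adjusted p from 0.0522 to 0.309 and log2 fold changes from -1.82 (Sv2c) to -0.34 (Unc13b). By role, 7 of 8 SNARE and SNARE-recycling genes fell, 2 of 6 in the group of synaptotagmins and Doc2b, 6 of 8 vesicle proteins, 2 of 3 Rab3 genes and 3 of 6 active zone genes.

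The spread between mice within a group was large. DMM vehicle mouse 64 was the lowest of its group in all 31 members, DMM AP20187 mouse 58 in 29 and naive AP20187 mouse 3 in 29. DMM AP20187 mouse 61 was the highest of its group in all 31, and vehicle mouse 64 lay below it in 30. The DMM groups were free of overlap in 1 member, Rab3b, while 4.18% of all genes tested were lower without overlap. With 1 library left out at a time, between 8 and 27 members passed. The count was 8 without AP20187 mouse 58, 59 or 60 or vehicle mouse 33, 9 without vehicle mouse 32 and 10 without vehicle mouse 34. The 8 members that passed whichever library was left out were Vamp2, Stx1a, Syp, Sv2a, Syngr1, Syngr3, Rab3a and Rab3b. The labels number the DMM vehicle mice in separate series, 32 to 34 and 63 to 64, and the latter follows the numbers of DMM AP20187 mice 58 to 62. With only mice 32 to 34 as controls 30 members passed, and with only mice 63 and 64 1 passed, at median log2 fold changes of -1.72 and -0.56. The share of all genes called in these fits, or with 1 library left out, is not given here. These counts therefore do not separate a change in the members from a change in calling over all genes.

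**Figure D1:**
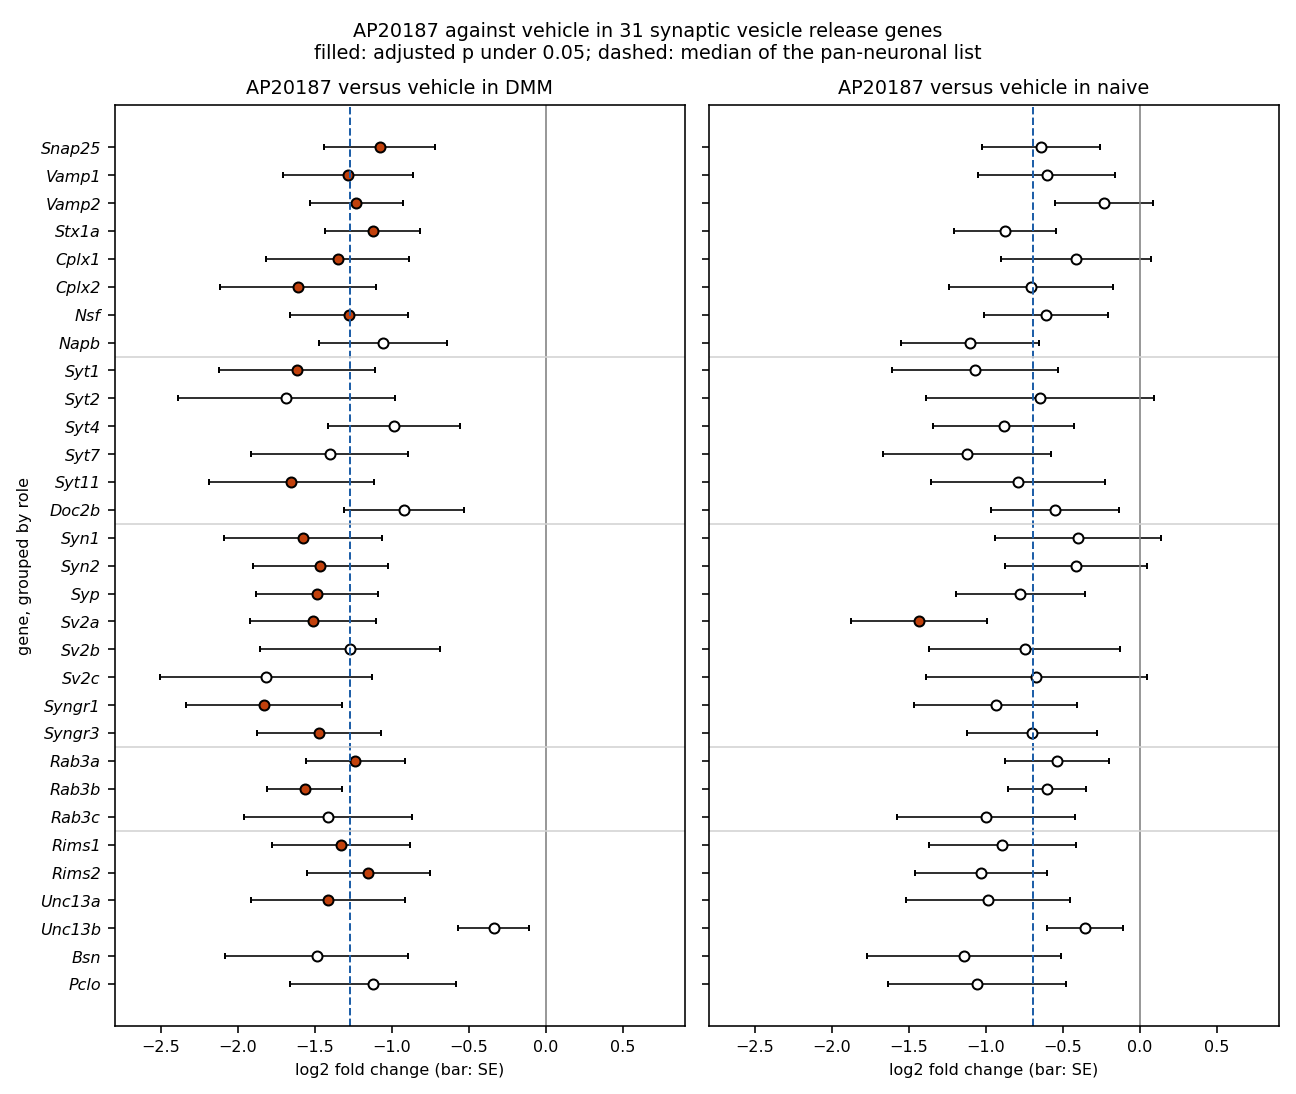
Fitted log2 fold change of AP20187 against vehicle (points) with its standard error (bars) for the 31 release genes, in DMM mice (left) and naive mice (right), ordered by role. Filled points had an adjusted p under 0.05 in edgeR (20 in DMM mice, 1 in naive mice), and the dashed line is the median of 26 pan-neuronal genes (-1.28 and -0.70).

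In naive mice, all 31 log2 fold changes of AP20187 against vehicle were again below 0, with a median of -0.75 against -0.07 over all genes tested. In edgeR 1 member passed, Sv2a, against 2.57% of all genes called lower. At an unadjusted p under 0.05 there were 5 of the 31 members. Over all genes there were 6550 of 22778 at that level, which is a larger share. The naive groups did not overlap in 4 members, Stx1a, Syt4, Sv2a and Rims2, which is 12.9% of the members against 6.15% of all genes tested. The difference between the AP20187 effects in DMM and naive mice had a median of -0.55. It was called in 0 members (edgeR; 0.114% of all genes tested) and in 0 with DESeq2. At an unadjusted p under 0.05 in edgeR there were 2 of the 31 members, Rab3b and Vamp2. Over all genes there were 1748 of 22778 at that level, a share near that of the members. The lower median in DMM mice is not shown to differ from that in naive mice for any single member.

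Among SNARE genes, values are given for Vamp2 and Stx1a, which had the smallest adjusted p. Vamp2 encodes the main vesicle synaptobrevin. In CPM it read 303, 371, 306, 310.0 and 157 in DMM vehicle mice 32, 33, 34, 63 and 64, and 69.8, 124, 103, 201 and 118 in DMM AP20187 mice 58 to 62. It read 299, 384, 185, 328 and 458 in naive vehicle mice 1 to 5, and 295, 149.6, 320.3 and 361 in naive AP20187 mice 1, 3, 4 and 5. The order of mice is the same for each gene that follows. The DMM groups overlapped only through vehicle mouse 64, and the naive groups overlapped over most of their range. Vamp2 fell by 1.23 on the log2 scale in DMM mice (SE 0.30, adjusted p 0.00872 in edgeR), and its difference in naive mice was -0.23 (SE 0.32, adjusted p 0.643). Stx1a encodes syntaxin 1A of the presynaptic membrane. It read 38.1, 41.3, 31.8, 34.4 and 16.9 CPM in DMM vehicle mice and 8.23, 16.0, 15.8, 22.9 and 11.6 CPM in DMM AP20187 mice. In naive mice it read 29.7, 36.1, 27.2, 33.1 and 41.1 CPM with vehicle and 18.9, 7.13, 23.5 and 23.2 CPM with AP20187. All 4 naive AP20187 mice lay below all 5 naive vehicle mice, whereas the DMM groups overlapped through mouse 64. The log2 fold change was -1.13 (SE 0.31, adjusted p 0.0154) in DMM mice and -0.88 (SE 0.33, adjusted p 0.0896) in naive mice, where it did not pass.

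The other SNARE genes lay close to these. Snap25, the membrane SNARE with the highest count of all members, went from 1136 ± 344 CPM in DMM vehicle to 537 ± 205 CPM in DMM AP20187 mice (mean ± SD, n = 5 each), a difference of -1.08 (SE 0.36, adjusted p 0.0368) on the log2 scale in edgeR. Vamp1, the other synaptobrevin, fell by 1.29, Cplx1 by 1.35, Cplx2, the other complexin, by 1.61, and Nsf, the ATPase that recycles SNAREs, by 1.28, all on the log2 scale. Napb, the neuronal SNAP adaptor of NSF, was the member of this group that did not pass, at -1.06 (SE 0.42, adjusted p 0.0704) in edgeR. In naive mice the 8 genes ranged from -1.10 (Napb) to -0.23 (Vamp2), and none passed in edgeR.

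Of the 5 synaptotagmins and Doc2b, Syt1 and Syt11 fell in DMM mice. Syt1 is the sensor for fast synchronous release in many neurons. It read 298, 382, 271, 159 and 53.7 CPM in DMM vehicle mice and 23.4, 65.5, 56.9, 150.0 and 83.1 CPM in DMM AP20187 mice. With no surgery it read 282, 361, 196, 369 and 338 CPM with vehicle and 100.1, 47.1, 192 and 249 CPM with AP20187. Vehicle mouse 64 lay below 4 of the 5 DMM AP20187 mice, and in the naive groups AP20187 mouse 5 overlapped the vehicle range. The fitted log2 change was -1.62 (SE 0.51, adjusted p 0.0288) in DMM and -1.07 (SE 0.54, adjusted p 0.194) in naive mice in edgeR. Syt11 read 901, 1156, 865, 494 and 196 CPM in DMM vehicle mice and 62.3, 142, 142, 488 and 313 CPM in DMM AP20187 mice. Naive values were 827, 1132, 509, 744 and 1029.5 CPM with vehicle and 412, 131, 665 and 751 CPM with AP20187. AP20187 mice 61 and 62 lay above vehicle mouse 64, and the other 3 lay below every vehicle mouse. Its log2 fold change was -1.65 (SE 0.54, adjusted p 0.0335) in DMM and -0.79 (SE 0.56, adjusted p 0.356) in naive mice.

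The other 4 did not pass in either comparison. Syt2, a fast sensor used by some large neurons, had one of the widest spreads, 179 ± 129 CPM with vehicle and 55.8 ± 47.9 CPM with AP20187 in DMM mice (mean ± SD, n = 5 each). Its log2 fold change of -1.69 (SE 0.71, adjusted p 0.0879) was as low as those of Syt1 and Syt11, with a larger error. Syt7, a slow, high-affinity sensor, was at -1.41 (SE 0.51, adjusted p 0.0522), Syt4, a synaptotagmin of dense-core vesicles, at -0.99 (SE 0.43, adjusted p 0.0996), and Doc2b at -0.92 (SE 0.39, adjusted p 0.0922) in DMM mice in edgeR. In naive mice the 6 genes ranged from -1.12 (Syt7) to -0.55 (Doc2b).

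Among vesicle proteins, Syp and Sv2a had the smallest adjusted p. Syp encodes synaptophysin, an abundant membrane protein of synaptic vesicles. It read 464, 468, 376, 373 and 159 CPM in DMM vehicle mice and 60.4, 107, 91.6, 232 and 165 CPM in DMM AP20187 mice. In the naive groups the values were 442, 481, 271, 344 and 550.1 CPM with vehicle and 231, 79.1, 327 and 338 CPM with AP20187. Of the 5 DMM vehicle mice, 4 lay above every DMM AP20187 mouse, and mouse 64 lay among those with AP20187. On the log2 scale the difference was -1.49 (SE 0.40, adjusted p 0.0133) in DMM and -0.78 (SE 0.42, adjusted p 0.224) in naive mice in edgeR. Sv2a encodes a vesicle glycoprotein that binds the antiepileptic drug levetiracetam. It read 54.0, 63.9, 49.5, 31.4 and 14.4 CPM in DMM vehicle mice and 7.24, 11.7, 10.7, 28.1 and 17.0 CPM in DMM AP20187 mice. Without surgery the readings were 55.4, 66.3, 36.4, 63.9 and 60.0 CPM with vehicle and 17.9, 8.14, 25.8 and 31.4 CPM with AP20187. The naive groups did not overlap. Sv2a was the only member that fell in both comparisons in edgeR, by 1.51 on the log2 scale in DMM mice (SE 0.41, adjusted p 0.0144) and by 1.44 in naive mice (SE 0.44, adjusted p 0.0424). The naive call was lost in 9 of the 19 fits that left out 1 library, those without naive AP20187 mouse 1, 3 or 4 and without naive vehicle mouse 1, 2, 4 or 5, and those without DMM AP20187 mouse 59 or DMM vehicle mouse 34.

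Syn1 and Syn2, the synapsins that tether vesicles into clusters, fell by 1.58 and 1.47 on the log2 scale in DMM mice. Syn1, whose promoter sequence is printed above and whose values are given for that reason, read 219, 325, 237, 227 and 64.1 CPM with vehicle and 22.8, 65.7, 46.4, 144 and 80.2 CPM with AP20187 in DMM mice. The naive groups read 272, 387, 108, 276 and 453 CPM with vehicle and 195, 65.1, 258 and 387 CPM with AP20187. The naive ranges overlapped over most of their length, and the log2 fold change was -0.40 (SE 0.54, adjusted p 0.634) in edgeR, with that of Syn2 at -0.42 (SE 0.46, adjusted p 0.560). The synaptogyrins, small membrane proteins of vesicles, fell as well, Syngr1 by 1.83 and Syngr3 by 1.47 in DMM mice. Of the SV2 family, Sv2b was at -1.27 (SE 0.59, adjusted p 0.121) and Sv2c at -1.82 (SE 0.69, adjusted p 0.0610) in DMM mice, and neither passed in edgeR. Sv2c had the widest spread over the 19 libraries of all members, with an SD of 1.58 in log2 CPM.

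The Rab3 GTPases cycle on and off vesicles and bind RIM at the active zone. Rab3b had the smallest adjusted p of all members in DMM mice. It read 11.0, 12.8, 11.7, 12.1 and 8.38 CPM in DMM vehicle mice and 2.70, 4.05, 3.59, 5.02 and 3.48 CPM in DMM AP20187 mice. In naive mice it read 12.3, 11.0, 9.48, 14.7 and 14.1 CPM with vehicle and 8.75, 3.77, 9.14 and 10.7 CPM with AP20187. Every DMM AP20187 mouse lay below every DMM vehicle mouse, mouse 64 included. The log2 fold change was -1.57 (SE 0.24, adjusted p 0.000437) in DMM mice and -0.61 (SE 0.25, adjusted p 0.124) in naive mice in edgeR. Its promoter, printed above, held 4 GC boxes and no RE1-type match. Rab3a, the main neuronal Rab3, read 231, 249, 209, 302 and 131 CPM in DMM vehicle mice and 51.6, 90.1, 75.6, 146 and 112 CPM in DMM AP20187 mice. With no surgery it read 263, 275, 140.3, 193 and 319 CPM with vehicle and 164, 71.3, 181 and 239 CPM with AP20187. Rab3a was the only member in which vehicle mouse 63 was the highest of its group, and of the DMM vehicle mice only 64 lay within the AP20187 range. The fitted log2 change was -1.24 (SE 0.32, adjusted p 0.0117) in DMM and -0.54 (SE 0.34, adjusted p 0.297) in naive mice. Rab3c did not pass, at -1.42 (SE 0.54, adjusted p 0.0653) in DMM mice.

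At the active zone, Rims1, Rims2 and Unc13a fell in DMM mice, each with an adjusted p near the threshold. Rims1 and Rims2 encode RIM proteins, which bind Rab3 and calcium channels. Rims1 read 57.3, 76.8, 64.2, 36.1 and 17.7 CPM in DMM vehicle mice and 4.52, 18.0, 16.8, 35.3 and 25.5 CPM in DMM AP20187 mice. Naive values were 60.4, 82.2, 40.8, 54.9 and 68.4 CPM with vehicle and 24.3, 14.7, 48.5 and 44.5 CPM with AP20187. The DMM vehicle mice other than 64 lay above every AP20187 mouse, mouse 63 only just, and mouse 64 lay among those with AP20187. On the log2 scale the difference was -1.33 (SE 0.45, adjusted p 0.0391) in DMM and -0.90 (SE 0.48, adjusted p 0.220) in naive mice in edgeR. Rims2 read 61.6, 73.4, 64.0, 41.5 and 18.9 CPM in DMM vehicle mice and 6.84, 23.0, 23.0, 36.5 and 27.2 CPM in DMM AP20187 mice. In the naive groups the values were 74.6, 82.9, 49.1, 49.5 and 70.8 CPM with vehicle and 26.4, 13.8, 41.7 and 45.7 CPM with AP20187. The naive groups were apart and the DMM groups overlapped, yet the test passed in DMM mice, at -1.15 (SE 0.40, adjusted p 0.0437), and not in naive mice, at -1.04 (SE 0.43, adjusted p 0.121) in edgeR. Unc13a, the priming factor Munc13-1, fell by 1.42 on the log2 scale (adjusted p 0.0475 in edgeR). Bsn (bassoon) at -1.49 (SE 0.59, adjusted p 0.0739) and Pclo (piccolo) at -1.12 (SE 0.54, adjusted p 0.137) did not pass.

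Unc13b (Munc13-2) stood apart from the other members and was singled out after its values were seen. It read 34.2, 39.5, 40.3, 23.1 and 20.8 CPM in DMM vehicle mice and 19.4, 27.7, 27.0, 31.9 and 18.6 CPM in DMM AP20187 mice. Without surgery the readings were 29.9, 30.4, 38.6, 48.4 and 30.2 CPM with vehicle and 17.6, 30.3, 36.1 and 26.7 CPM with AP20187. The DMM groups overlapped over most of their range. In naive mice 2 of the 4 AP20187 mice lay below every vehicle mouse, and the other 2 lay within the vehicle range. The log2 fold change was -0.34 (SE 0.23, adjusted p 0.309) in DMM and -0.36 (SE 0.25, adjusted p 0.339) in naive mice in edgeR.

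**Figure D2:**
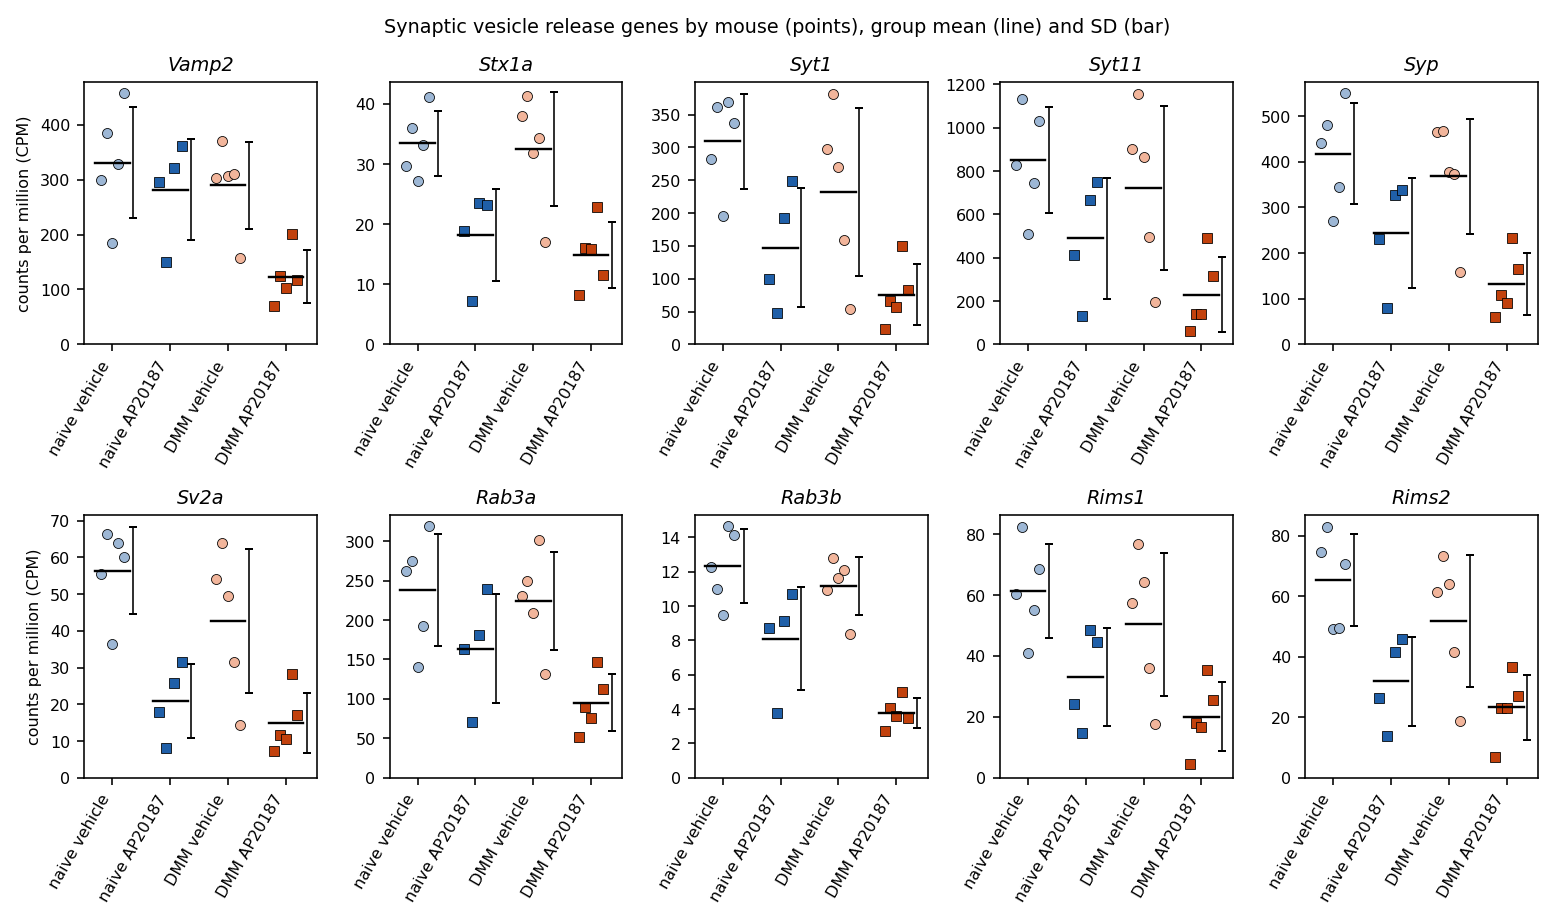
CPM in each mouse (points) for 10 release genes in the 4 groups, with the group mean (line) and SD (bar), each panel with its own linear axis from 0. Rab3b is the only panel in which the DMM AP20187 mice all lie below the DMM vehicle mice, and in Stx1a, Sv2a and Rims2 the naive AP20187 mice all lie below the naive vehicle mice.

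DMM surgery without AP20187 was compared through the vehicle groups, which also serve in the comparisons above. No member was called in edgeR, and none had an unadjusted p under 0.05. DESeq2 called 0, and 0% of all genes tested were called in edgeR. All 31 log2 differences of the members, DMM against naive, were below 0, as were those of 10557 of all 22778 genes tested. The members' median was -0.21, against 0.03 over all genes. The smallest unadjusted p were those of Bsn and Sv2a. Bsn read 56.7, 135, 83.3, 22.2 and 13.3 CPM in DMM vehicle mice and 71.8, 154, 45.3, 125 and 88.6 CPM in naive vehicle mice, and the groups overlapped. The log2 differences were -0.64 (SE 0.58, adjusted p 1) for Bsn and -0.40 (SE 0.40, adjusted p 1) for Sv2a in edgeR. Without mice 32 to 34 the median moved to -1.06.

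Between the AP20187 groups, DMM against naive, all 31 log2 differences were below 0, with a median of -0.85 against -0.01 over all genes. In edgeR 1 member was called lower, Rab3b at -1.10 (SE 0.25, adjusted p 0.0485), where 0.439% of all genes tested were called lower. With 1 library left out at a time its call was lost in 15 of 19 fits, with adjusted p reaching 0.125, and held without DMM AP20187 mouse 61, DMM vehicle mouse 32 or 64, or naive AP20187 mouse 3. In the same comparison, the pan-neuronal genes had a median of -0.61, with 24 of 26 below 0, 0 called in edgeR and 10 at an unadjusted p under 0.05. At that unadjusted level there were 12 of the 31 members and 3795 of all 22778 genes tested. Of 9 skeletal muscle genes 3 were called lower, with a median of -4.66 and sums of 72.8 to 199.7 CPM in DMM and 1891 to 2927 CPM in naive mice. Of 9 central neuron genes 3 were called higher, against 0.263% of all genes tested, with a median of 2.27 and sums of 7.18 to 12.3 and 2.13 to 6.12 CPM. Their part in the members' difference was not tested. After Rab3b, Vamp2 came next, at -1.19 (SE 0.32, adjusted p 0.0811). The difference between the AP20187 effects was -0.96 (SE 0.34, adjusted p 0.463) for Rab3b and -0.998 (SE 0.44, adjusted p 0.598) for Vamp2 in edgeR, and neither passed.

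The members moved together with genes that mark neurons in general. A pan-neuronal list of 26 genes without release machinery (among them Rbfox3, Tubb3, Uchl1 and the neurofilaments) had 15 genes lower (57.7%, against 12.4% of all genes tested) and 0 higher in DMM mice, with a median log2 fold change of -1.28 against -0.10 over all genes. In naive mice 0 of the 26 were called (edgeR; 7 at an unadjusted p under 0.05), with a median of -0.70 against -0.07. At that unadjusted level there were 6550 of all 22778 genes tested, a share near that of the 26. Among the 15, Rbfox3, the NeuN antigen, was at -1.51 (SE 0.49, adjusted p 0.0323) and Nefl, the light neurofilament, at -1.49 (SE 0.49, adjusted p 0.0346). As a score per library (mean log2 CPM), the 31 members ran from 4.28 to 6.59 in DMM AP20187 mice and from 5.68 to 7.73 in DMM vehicle mice. The pan-neuronal score ran from 5.64 to 7.95 and from 7.24 to 8.83 in the same groups. Mice 58, 64 and 3, the lowest of their groups for the members, were also the lowest of their groups for the pan-neuronal list. Both scores come from the same libraries and share their depth and scaling.

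**Figure D3:**
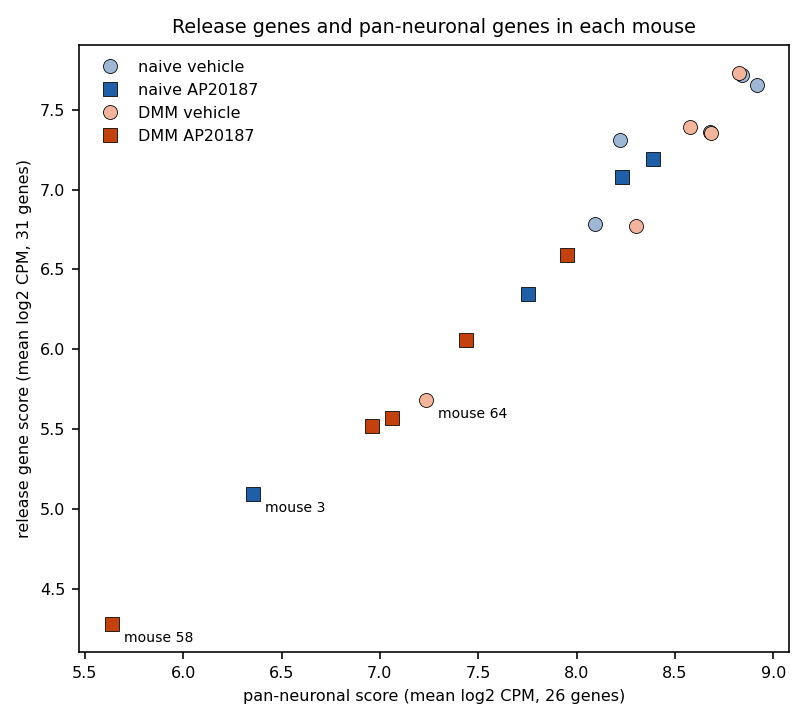
Mean log2 CPM of the 31 release genes (vertical axis) against that of the 26 pan-neuronal genes (horizontal axis) in each of the 19 libraries, by group. The libraries of all 4 groups lie along 1 band, and the 3 labelled mice are the lowest of their groups on both axes.

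When the pan-neuronal score was subtracted from each library, the spread of most members shrank. The SD over the 19 libraries had a median of 1.05 in log2 CPM and of 0.38 relative to the score. It became smaller for 30 of 31 members. Syp followed the score most closely, with an SD of 0.97 before and 0.18 after, followed by Rims2 (0.95 and 0.19) and Vamp1 (0.92 and 0.20). Sv2c and Syt2 kept a wide spread, at 0.77 and 0.71. The exception was Unc13b, whose SD was 0.41 before and 0.78 after. With libraries scaled to the pan-neuronal list in place of all genes, 0 of 31 members passed in DMM mice (edgeR; 2 at an unadjusted p under 0.05) and 0 in naive mice, and the median in DMM mice was -0.12. On that scale Unc13b was at 1.11 (SE 0.47, adjusted p 0.0642) in DMM mice and Syngr1 at -0.56 (SE 0.25, adjusted p 0.0789) in edgeR, and both missed the threshold. This scaling shifted the median of all genes tested to 1.28 in DMM mice and 0.98 in naive mice, and in DMM mice 11 of the 31 members came to lie above 0, though all 31 stayed below that median. Of the 20 members called lower with the usual scaling, these were Snap25, Vamp2, Stx1a, Nsf, Rab3a and Rims2, at 0.03 to 0.23. Of the 11 not called, they were Pclo, Napb, Syt4, Doc2b and Unc13b, at 0.13 to 1.11.

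**Figure D4:**
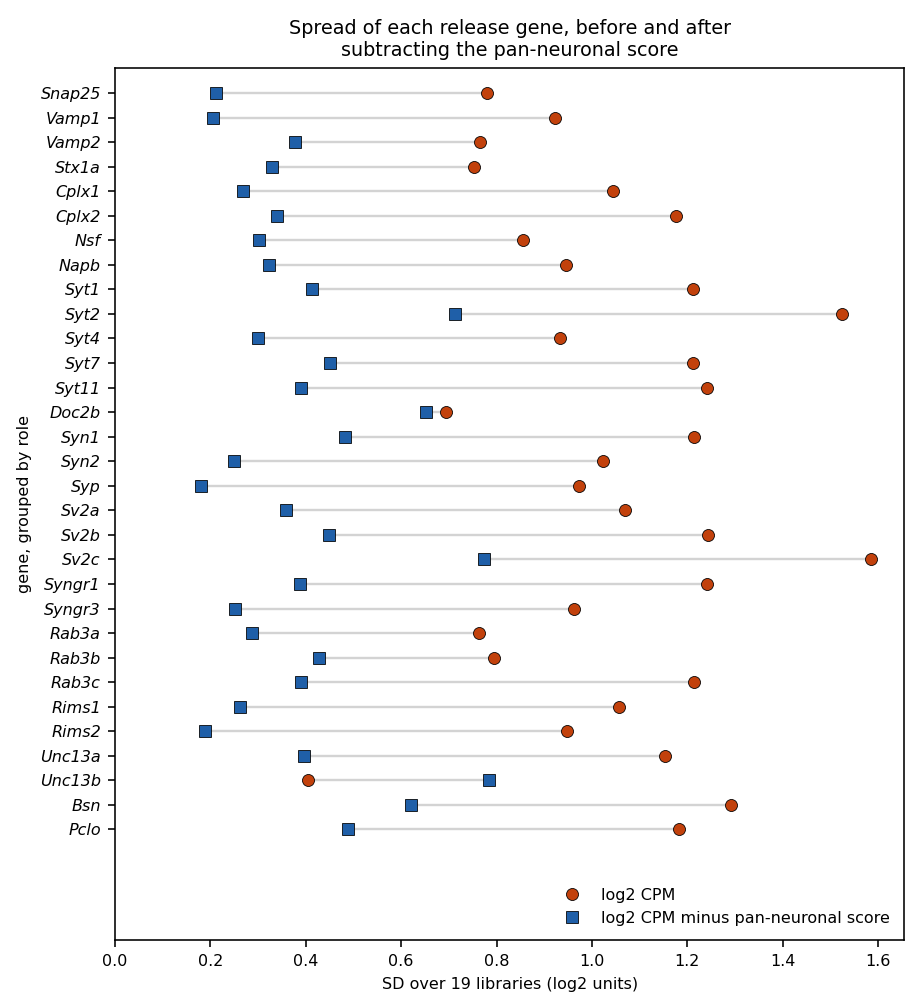
SD over the 19 libraries of each release gene's log2 CPM (circles) and of its log2 CPM minus the pan-neuronal score of the library (squares), ordered by role. The square lies to the left of the circle in 30 of 31 genes, and to the right in Unc13b.

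The balance within gene families was compared as the log2 ratio of CPM of 12 pairs of related members, chosen after the values were seen, with 24 exact permutation tests (2-sided). None passed after Benjamini-Hochberg adjustment (smallest adjusted p 0.238 by the exact permutation tests, of which 4 had an unadjusted p under 0.05). The smallest unadjusted p, 0.0159, was that of Cplx1 over Cplx2 in naive mice, where the log2 ratio was 1.65 ± 0.13 with AP20187 (SD, n = 4) and 1.31 ± 0.13 with vehicle (SD, n = 5) in the exact permutation test, without overlap. In DMM mice the same ratio was 1.62 ± 0.30 and 1.29 ± 0.12 (SD, n = 5 each), with overlap and an exact permutation p of 0.0635. The ratio of Unc13a to Unc13b was 0.32 ± 0.74 with AP20187 and 1.35 ± 0.69 with vehicle in DMM mice (SD, n = 5 each; exact permutation p 0.0397, adjusted p 0.238). The smallest p these group sizes allow is 0.00794, which over 24 tests adjusts to 0.190 for 1 test alone, so at least 4 tests at that smallest p were needed for any to pass.

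Other genes of the release pathway were taken from a list of 71, of which 67 were tested. In DMM mice 26 fell (38.8%, against 12.4% of all genes tested) and 9 rose (13.4%, against 11.3% of all genes tested), and the median was -0.82. In naive mice 7 fell (10.4%, against 2.57%) and 6 rose (8.96%, against 8.61%), and the median was -0.50. The shares that rose were near those over all genes. The vesicular glutamate transporter Slc17a8 (VGLUT3) showed the largest fall in DMM mice, from 19.6 ± 11.8 CPM with vehicle to 4.18 ± 3.02 CPM with AP20187 (mean ± SD, n = 5 each), a difference of -2.23 (SE 0.53, adjusted p 0.00722) on the log2 scale in edgeR. In naive mice it was -1.80 (SE 0.56, adjusted p 0.0467).

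Among the 9 that rose in DMM mice, Stxbp2, which serves granule release in blood cells, went from 29.1 ± 20.2 to 148 ± 41.6 CPM in DMM mice, which is 2.34 (SE 0.40, adjusted p 0.000982) on the log2 scale in edgeR, and 2.31 (SE 0.42, adjusted p 0.00251) in naive mice. Unc13d (Munc13-4), which primes lytic and other granules in leukocytes, was at 2.02 (SE 0.44, adjusted p 0.00442) in DMM and 1.57 (SE 0.45, adjusted p 0.0325) in naive mice. The other 7 that rose in DMM mice, named after their values were seen, were Rab27a, Syngr2, Snap23, Stxbp5, Vamp3, Sypl and Snap29. Rab27a, a GTPase of granules and melanosomes, was at 1.75 (SE 0.24, adjusted p 0.000151) and Snap23, the broadly expressed relative of Snap25, at 1.30 (SE 0.32, adjusted p 0.00926). On this scale 1 gene fell and another rose within the Munc13 family (Unc13a and Unc13d), the SNAP-25 family (Snap25 and Snap23) and the synaptogyrins (Syngr1 and Syngr2). These pairs were picked among genes already called. Unc13b, also of the Munc13 family, was not called, at -0.34 (adjusted p 0.309 in edgeR). With scaling to the pan-neuronal list none of the 3 in these pairs that fell was called, with Unc13a at -0.07, Snap25 at 0.21 and Syngr1 at -0.56.

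**Figure D5:**
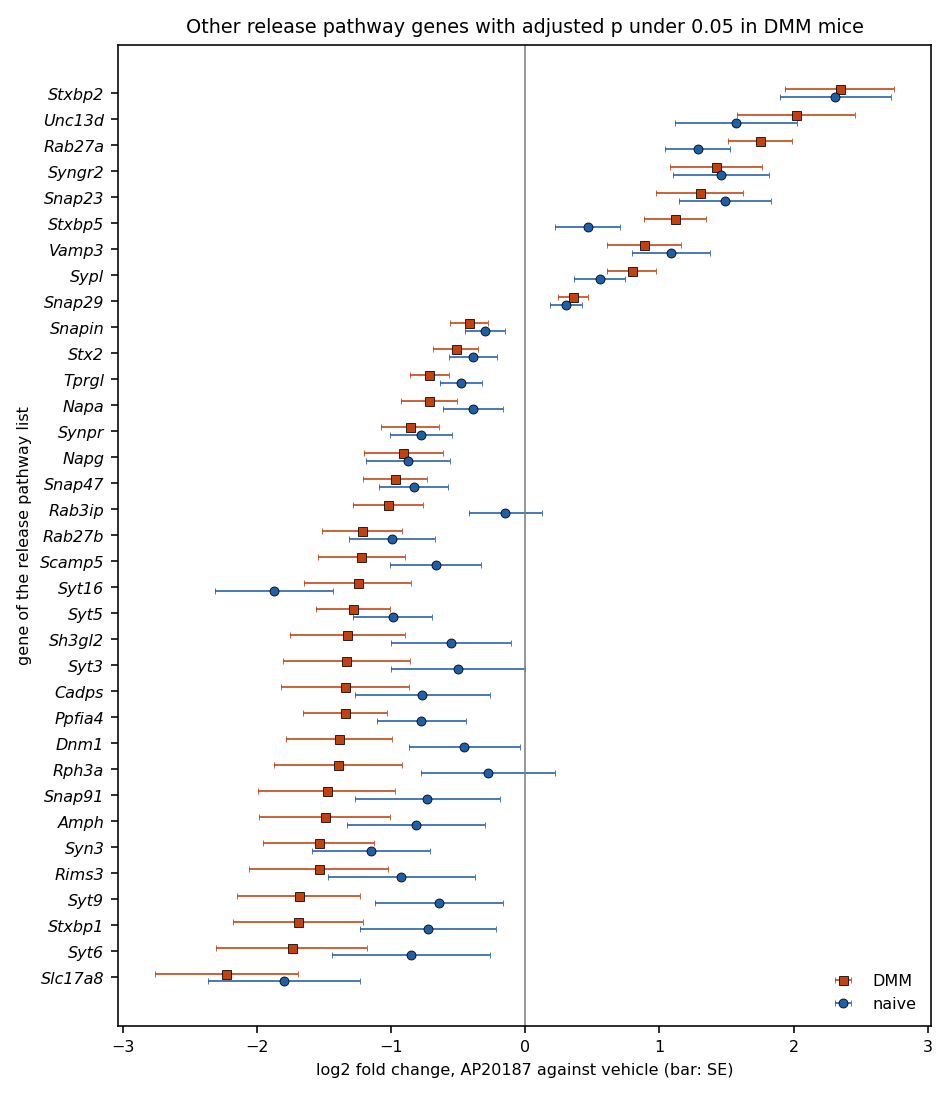
Log2 fold change of AP20187 against vehicle with its standard error for the 35 other release pathway genes with an adjusted p under 0.05 in DMM mice (squares), and the same genes in naive mice (circles). The 9 that rose run from Snap29 (0.36) to Stxbp2 (2.34), and the 26 that fell reach -2.23 in Slc17a8.

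Markers of other cells differed between the same groups. In DMM mice 12 of 12 proliferation genes and 7 of 14 bone marrow precursor genes rose with AP20187 and 2 of the 14 fell, where 11.3% of all genes tested were called higher and 12.4% lower. The marrow genes did not move as one. The neutrophil granule proteases Ctsg and Prtn3 were at 4.15 (SE 0.69, adjusted p 0.000727) and 3.92 (SE 0.73, adjusted p 0.00158) in edgeR. Rag1, a recombinase of lymphocyte precursors, was at -6.77 (SE 0.88, adjusted p 0.000117), and the other gene that fell was the globin Hbb-bt, at -1.87 (SE 0.60, adjusted p 0.0326), named after its value was seen. The summed marrow level was 12036 to 20087 CPM with AP20187 and 525 to 9039 CPM with vehicle, and the summed proliferation level 1130.1 to 2640.2 and 71.8 to 685 CPM. As a mean log2 CPM, which weights the 14 marrow genes equally, the marrow groups overlapped, at 5.61 to 6.47 with AP20187 and 2.75 to 6.74 with vehicle, where mouse 64 was the highest of all 10 DMM mice. In naive mice 8 of 14 marrow genes rose and 1 fell, 10 of 12 proliferation genes rose (8.61% of all genes tested were called higher), and the summed marrow level was 5868 to 17489 CPM with AP20187 and 1089.5 to 3567 CPM with vehicle. Of 12 macrophage genes 2 rose in DMM mice (16.7%, against 11.3% of all genes tested) and 4 in naive mice (33.3%, against 8.61%), with sums of 2366 to 5012 against 447 to 3682 CPM and 1728 to 3559 against 408 to 1374 CPM. Their part in the lower share of release transcripts was not tested.

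Glial genes of the ganglion were called in part. The shares of all genes tested were 12.4% called lower and 11.3% higher in DMM mice, and 2.57% and 8.61% in naive mice. In DMM mice 3 of 9 satellite glia genes fell (33.3%), with sums of 1847 to 4005 CPM with AP20187 and 2292 to 5189 CPM with vehicle. Of 10 myelinating Schwann cell genes 5 fell (50.0%), with sums of 1776 to 5399 and 3374 to 5666 CPM. In naive mice 1 of the 9 satellite glia genes fell and 0 of the 10 Schwann cell genes were called in edgeR (0 at an unadjusted p under 0.05). Of 6 fibroblast genes 0 were called in edgeR in either pair, and 0 had an unadjusted p under 0.05. Markers of neighbouring tissues also differed. In naive mice 5 of 9 skeletal muscle genes rose with AP20187 (55.6%), with sums of 1891 to 2927 CPM against 64.7 to 562 CPM. There 4 of 9 central neuron genes (44.4%) and 3 of 9 central glia genes (33.3%) fell, and the central neuron markers Gabra6 and Slc6a5 were at 0 in the 4 naive AP20187 libraries. The central neuron sum was 2.13 to 6.12 CPM with AP20187 and 8.15 to 11.5 CPM with vehicle. In DMM mice no central gene was called in edgeR (1 central glia gene and 0 central neuron genes at an unadjusted p under 0.05), and 2 of 9 muscle genes fell (22.2%). The muscle sums there were 72.8 to 199.7 CPM with AP20187 and 55.9 to 2235 CPM with vehicle, with a vehicle median of 184.8 CPM. As a mean log2 CPM, DMM vehicle mouse 32 was at 7.66 and the other DMM vehicle mice at 1.42 to 4.81. The DMM AP20187 mice were at 1.65 to 4.24, so the groups overlapped. The part of these tissues in the naive result was not tested.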

How the data were processed

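Poly(A) RNA libraries were made with a stranded kit, per the labels' protocols. The submitters' processing notes name cutadapt, HISAT2, StringTie and the build GRCm39, with no versions or roles. How reads were assigned to genes, and with which strand setting, is not given in the sources used here. The authors deposited read counts per gene, used as deposited, and FPKM values, which the authors normalized for length and depth. The members and lists were chosen with earlier results of these data known.

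Counts were tested in edgeR 4.0.16 (R 4.3.3; TMM scaling, filterByExpr with a minimum count of 10, quasi-likelihood test, 4 groups in 1 fit with 15 residual degrees of freedom), with Benjamini-Hochberg adjustment over 22778 genes and a threshold of 0.05. CPM are scaled by TMM. The comparisons share groups. limma 3.58.1 and DESeq2 1.42.0 served alternatives. The test was checked on simulated counts. All members are named, with values by mouse for the 2 of smallest adjusted p per role in DMM mice and the 2 per other contrast; of each other list, at most 3 genes of largest change among those that passed in DMM mice, and further genes where the text says that they were named after their values were seen. Member counts were equal in both deposited tables, and no sample column was left unmatched. Promoter windows came from RefSeq. A gene of the release pathway list is counted in it but not reported here by name.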

Additional observations from a re-analysis of the deposited data

Results flagged for a closer look

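In groups of 4 or 5 mice, the highest or lowest value was set against the others in 124 groups (31 members in 4 groups), by its gap to the nearest mouse as a share of the group's range. In 1 of them this share exceeded the 95% critical value of Dixon's test. Doc2b in naive vehicle mouse 4 read 4.32 CPM, the next mouse 1.99 CPM, and the gap made up 0.819 of the range. Doc2b was the lowest of the members per unit of length. Chance marks about 1 group in 20. Mouse 4 was the highest of its group in 4 members.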

How the results depend on the processing

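The counts in this section are of members alone, and the share of all genes called under each alternative is not given here. In DMM mice 20 members passed. The count was 26 with DESeq2, 20 and 19 on log2(FPKM + 1) and log2(FPKM + 0.1) with limma, 14 with only the groups compared, 31 with voom sample weights, 12 without a filter on low counts (more genes to adjust over), 0 with scaling to the pan-neuronal list, 1 with vehicle mice 63 and 64 alone, and 8 to 27 with 1 library left out. The median moved to -0.12 with the pan-neuronal scaling and to -0.56 with vehicle mice 63 and 64 alone; DMM against naive with vehicle moved to -1.06 with those mice. Of the 20 called members, the pan-neuronal scaling (median of all genes 1.28) put 6 above 0, Snap25 (0.21), Vamp2 (0.086), Stx1a (0.23), Nsf (0.16), Rab3a (0.028) and Rims2 (0.12), and 5 of the 11 not called lay above 0 as well. In naive mice 1 passed, against 2 with DESeq2, 5 with either FPKM offset, 4 with sample weights, 0 without the filter or with the pan-neuronal scaling, and 0 to 1 with 1 library left out. Mice 1, 3, 4 and 5 share numbers across the naive groups; the deviations of same-numbered mice correlated by 0.0078, 0.254, -0.0532 and 0.223, and 2 of the 4 AP20187 mice (3 and 5) correlated best with their own number. The labels do not pair them, and they are treated here as sharing only a number. With the replicate block 5 passed, and 0 in those mice without it, a setting added after the data were seen. Between the AP20187 groups 1 passed, against 3 with DESeq2, 16 with sample weights, 0 to 2 with 1 library left out, and 0 without TMM, without the filter, with the pan-neuronal scaling, with either FPKM offset or with only the groups compared. The other counts stayed at 0 under each alternative run. Counting error weighs most on Doc2b, whose lowest library held 43 counts.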

Other observations

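Some release pathway genes were lower with AP20187 in naive mice. Slc32a1, the vesicular transporter for GABA and glycine, was at 1.91 ± 0.296 CPM in naive vehicle and 0.586 ± 0.161 CPM in naive AP20187 mice, a difference of -1.70 (SE 0.28, adjusted p 0.00146) on the log2 scale in edgeR. In DMM mice it was at 2.05 ± 0.327 CPM with vehicle and 2.36 ± 0.696 CPM with AP20187, a difference of 0.20 (SE 0.25, adjusted p 0.603). Syt16, a synaptotagmin, was at -1.87 (SE 0.44, adjusted p 0.0118) in naive and -1.25 (SE 0.40, adjusted p 0.0311) in DMM mice. Doc2a, a relative of Doc2b, was at 0.286 ± 0.208 CPM in naive vehicle and 0.00432 ± 0.00865 CPM in naive AP20187 mice, and at 0.280 ± 0.188 and 0.204 ± 0.151 CPM in the DMM groups. The central neuron genes Gabra6 and Slc6a5, the latter a glycine transporter, were at 0 in the same 4 naive AP20187 libraries. These genes were named after their values were seen, and the part of central nervous tissue in them was not tested.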
